A study of Mus musculus with 20 samples.

Results

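The genes described are 10 genes of bile acid synthesis, conjugation, transport and feedback control in mouse liver: Cyp7a1, Cyp8b1, Cyp27a1, Slc27a5, Baat, Slc10a1, Slco1b2, Abcb11, Nr1h4 and Nr0b2. All probe sets whose only annotated gene symbol was one of these were taken, which gave 18 probe sets among the 34945 on the array with a single symbol. Of these, 16 had a mean log2 signal at or above the median probe set, and all 10 genes were among the 11216 genes tested through 1 probe set each. The mice were male C57BL/6J, kept free of specific pathogens, and their livers were measured on 20 Affymetrix arrays. In experiment 1, mice aged 8 weeks at the start received 137Cs gamma rays for 485 days (22 h per day) at 0.042, 0.858 or 16.6 mGy per day, to cumulative doses of 20.6, 416 and 8030 mGy. In experiment 2, mice were irradiated for 401 days at 0.05, 1.00 or 20.0 mGy per day, to 20, 401 and 8015 mGy. Their age at the start was taken as 8 weeks too, though the labels state it for experiment 1 only. In the text these are the low, medium and high dose-rate. The 6 irradiated groups held 3 mice, with an array for each mouse. Unirradiated controls were measured only as pools, 1 array per experiment, with RNA of 3 mice in experiment 1 and of 6 mice in experiment 2. Livers were taken when irradiation ended, and no group had a genetic change or another agent, as far as the labels say.

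Bile acids are made from cholesterol in hepatocytes. The classical pathway starts with Cyp7a1, and Cyp8b1 decides how much of its product becomes cholic acid. Cyp27a1 starts the alternative pathway and oxidizes the side chain. Slc27a5 activates bile acids to their coenzyme A esters, and Baat joins these to taurine or glycine. Slc10a1 and Slco1b2 bring bile acids back from portal blood, and Abcb11 pumps them into the canaliculus. The nuclear receptor Nr1h4 (FXR) binds bile acids, activates Abcb11 and Nr0b2 (SHP), and through Nr0b2 and intestinal signals lowers transcription of Cyp7a1 and Cyp8b1. Hnf4a and Nr5a2 can activate both of these genes. In rodents Cyp7a1 also follows the time of day and feeding.

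Promoter windows from RefSeq (build GRCm38.p6) were found for 7 of the 10 genes, as 8 windows of 32851 in the table. Cyp7a1, Slc27a5 and Baat had no window and were not searched. The 250 bases before each start were searched on both strands. Cyp8b1, Abcb11 and Nr0b2 are shown because Cyp8b1 differed most between dose-rates, Abcb11 ran opposite to Cyp7a1 from mouse to mouse, and Nr0b2 differed most between the experiments in its dose pattern. Each is printed 5′ to 3′ along its gene's strand, with the motif match in capitals.
Cyp8b1, chr9:121916306-121916555, minus strand: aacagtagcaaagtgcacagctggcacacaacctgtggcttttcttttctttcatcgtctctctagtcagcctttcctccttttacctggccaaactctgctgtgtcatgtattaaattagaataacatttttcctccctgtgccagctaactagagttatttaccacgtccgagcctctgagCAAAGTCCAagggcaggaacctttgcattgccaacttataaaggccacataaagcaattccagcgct
Abcb11, chr2:69342617-69342866, minus strand: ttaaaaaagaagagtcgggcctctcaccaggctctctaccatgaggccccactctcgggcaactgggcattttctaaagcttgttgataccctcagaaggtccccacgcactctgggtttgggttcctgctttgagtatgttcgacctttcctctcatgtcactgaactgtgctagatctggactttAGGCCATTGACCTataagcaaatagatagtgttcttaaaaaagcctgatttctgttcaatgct
Nr0b2, chr4:133553126-133553375, plus strand: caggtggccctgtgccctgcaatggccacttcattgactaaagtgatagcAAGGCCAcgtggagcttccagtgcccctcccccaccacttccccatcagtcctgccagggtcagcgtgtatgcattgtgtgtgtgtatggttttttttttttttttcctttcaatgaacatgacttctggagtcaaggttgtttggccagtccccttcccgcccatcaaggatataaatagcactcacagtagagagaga

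The capitals in Cyp8b1 are CAAAGTCCA, a letter form of the HNF4 motif, 67 to 59 bases before the start, and 0.384% of all windows held it on either strand. In Abcb11 they are an FXR inverted repeat, searched as AGGNCA, any base, then TGACCT, which lay 63 to 51 bases before the start. It was found in 0.0335% of all windows, and among the 10 genes also in Slco1b2, 88 to 76 bases before its start. The capitals in Nr0b2 are the NR5A2 motif AAGGNCA, 200 to 194 bases before the start, which 17.5% of windows held. Cyp8b1 held that motif at 59 to 53 bases, sharing 1 base with its HNF4 match, and again at 27 to 21 bases. The shorter nuclear receptor motif AGGTCA was in 14.0% of windows and in those of Abcb11, Nr1h4, Slc10a1 and Slco1b2, in Abcb11 and Slco1b2 inside the inverted repeat. The D-box TTATGTAA, a clock-output motif, was in 0.819% of windows and in 0 of the 8 windows of these genes, which do not include Cyp7a1. A match is a description of letters and not evidence of binding in these livers.

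Markers of the labelled tissue were high. The 8 hepatocyte markers summed to signals of 388073 to 514808 per array, and each exceeded 13418 on every array (the lowest was Tat). Of 9 cholangiocyte markers 6 were on the array and 4 were tested, with sums of 415 to 916, and Cftr stayed between 1.33 and 58.4. The 3 B cell markers on the array summed to 216 to 797 and the 3 T cell markers to 137 to 469. Other lists had larger sums: 10957 to 18885 for Kupffer, 11040 to 19558.5 for stellate and 6558 to 9240 for endothelial markers. The 6 pancreatic acinar markers on the array summed to 1304 to 3670, of which Cela1 had 1015 to 3374. Limma called 0 of the tested marker genes between the high and the low dose-rate or between high and control. Of all genes it called 0% and 0.0535% there, so these counts say little about the share of each cell type. In whole liver, fewer cells of a type and less RNA per cell cannot be told apart. The Gapdh ratio, the signal of the probe set at the 3′ end over that at the 5′ end, reflects RNA integrity. It lay between 0.69 and 0.769 on the arrays of experiment 1 and between 0.871 and 0.993 on those of experiment 2, without overlap. Within each experiment the low, medium and high mice overlapped, and the control pool of experiment 1, at 0.69, lay under all 9 irradiated arrays of that experiment (0.701 to 0.769). The part of this in the contrasts with control was not tested.

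The 10 genes differed widely in how much mice of one group varied. The residual SD between mice, on the log2 scale with dose-rate and experiment accounted for, was 0.66 for Cyp7a1, above that of 93.4% of all genes tested. It was 0.51 for Cyp8b1 (above 87.3% of genes) and 0.46 for Nr0b2 (above 84.1%). The median over all genes was 0.24. The other 7 lay between 0.10 for Slco1b2 and 0.20 for Abcb11, all under that median. Cyp7a1, Cyp8b1 and Nr0b2, the pair of hydroxylases of the classical pathway and the repressor that acts on them, thus had the widest spread of the 10.

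**Figure D1:**
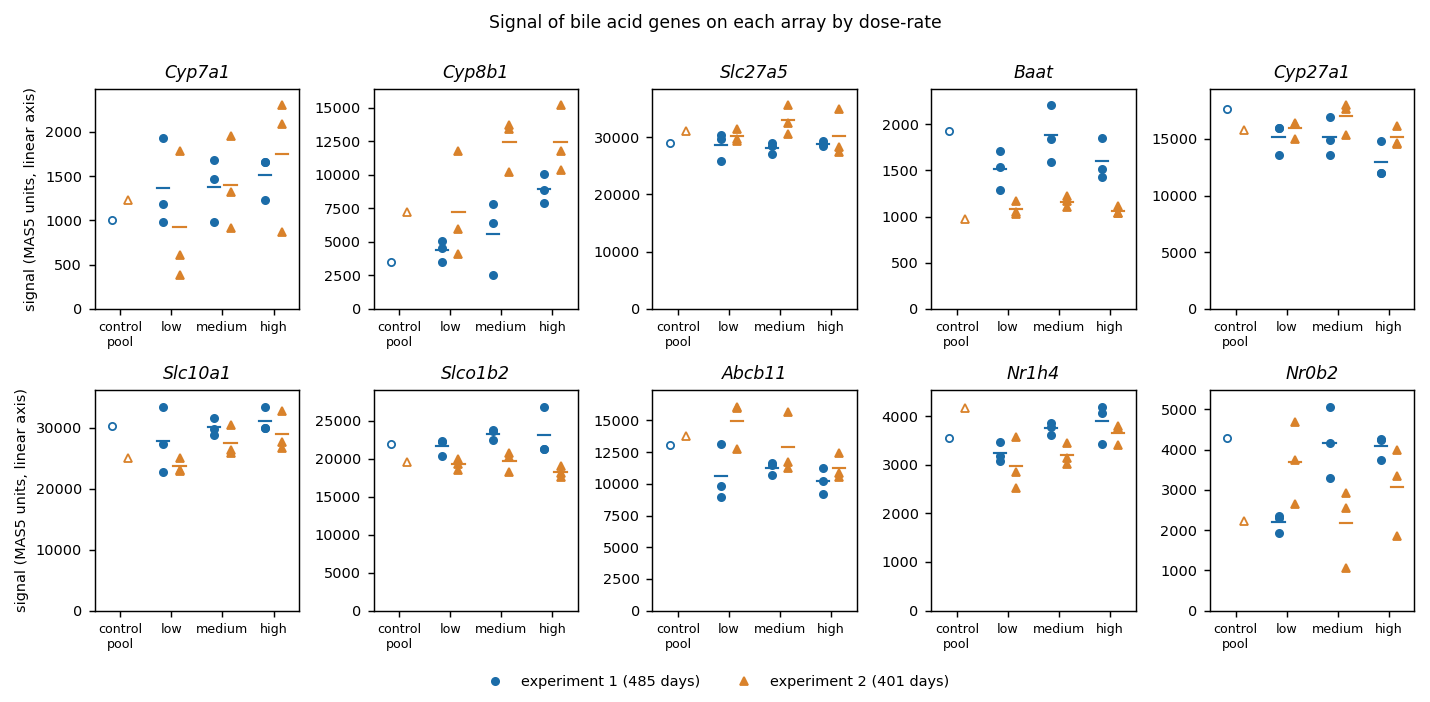
Signal (linear MAS5 units, y axis from 0) of the 10 genes on each array, by dose-rate on the x axis, with blue circles for experiment 1 (485 days), orange triangles for experiment 2 (401 days), open symbols for control pools and dashes for the mean of 3 mice. Cyp8b1 has a median of 4796 at the low and 10185 at the high dose-rate, and Baat and Slco1b2 sit lower in experiment 2.

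Cyp8b1 had the largest difference between high and low dose-rate of the 10 genes. In experiment 1 its signal was 3523 in the control pool, 3524, 4523 and 5068 in the low mice, 6414, 7843 and 2549.8 in the medium mice and 8862, 7871 and 10029 in the high mice. In experiment 2 it was 7189.9 in the pool, 5923, 4087 and 11776 at low, 13727, 10239.9 and 13448 at medium and 15215, 10341 and 11789.5 at high. All 3 high mice of experiment 1 lay above all low and medium mice and above the pool, whereas in experiment 2 the ranges overlapped through low mouse 3. High minus low was 0.97 ± 0.25 on the log2 scale (SE, 6 mice against 6), or 1.96-fold, with a 95% interval of 0.46 to 1.48. This difference did not pass the threshold of 0.05 (unadjusted p = 0.000759, adjusted p = 0.161 by limma with Benjamini-Hochberg adjustment over 11216 genes), and it ranked 52nd by p. It was 1.04 in experiment 1 and 0.90 in experiment 2, and 6 of 6 high mice lay above the mean of the low mice of their experiment. The share of all genes for which this held was not counted, here or for such counts of other members. Leaving out each array in turn gave 0.80 to 1.12, with adjusted p from 0.0528 to 0.349. The summed hepatocyte markers of experiment 1 were also lower in the low mice (388073 to 421621) than in the medium (428014 to 469691) and high mice (433204 to 493098), without overlap. In experiment 2 the sums of the low (457941 to 468491) and high mice (412046 to 477118) overlapped. The part of these markers in the dose differences of Cyp8b1, Nr1h4 and Nr0b2 was not tested.

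Against the control pools, Cyp8b1 at the high dose-rate differed by 1.05 ± 0.35 (6 mice against 2 pools, unadjusted p = 0.00652, adjusted p = 0.415 by limma), 1.33 in experiment 1 and 0.77 in experiment 2, and was higher in 6 of 6 mice. With arrays weighted by the number of mice in the RNA, the difference was 1.02 and passed (adjusted p = 0.0166), the lowest of 33 alternative settings, which reached 0.9999. Medium minus control was 0.65 ± 0.35, and low minus control was 0.08 ± 0.35. The medium dose-rate exceeded the low by 0.57 ± 0.25 (unadjusted p = 0.0322, adjusted p = 0.588), 0.22 in experiment 1 and 0.91 in experiment 2. High minus medium was 0.40 ± 0.25, made up of 0.81 in experiment 1 and -0.01 in experiment 2. In experiment 1 medium mice 1 and 2 lay above all low mice and medium mouse 3 lay below them all, whereas in experiment 2 the medium and high mice overlapped and all lay above low mice 1 and 2. The difference between experiments in high minus medium did not pass (adjusted p = 0.992 by limma).

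Cyp7a1, the rate-limiting enzyme of the classical pathway, had groups that overlapped widely. The signals in experiment 1 were 1001 in the pool, 1189, 985 and 1937 at low, 1683, 1464 and 979 at medium and 1661, 1227 and 1659 at high. In experiment 2 they were 1234 in the pool, 379.7, 609 and 1780.1 at low, 1318, 919 and 1953 at medium and 2306, 864 and 2089 at high. Each dose level held mice on both sides of the pool in at least 1 experiment, and the lowest and the highest mouse of all were both in experiment 2. High minus low was 0.65 ± 0.32 (unadjusted p = 0.0528, adjusted p = 0.505 by limma), with an interval of -0.01 to 1.30 and 5 of 6 high mice above the low mean. Leaving out each array in turn gave values from 0.38 (without low mouse 1 of experiment 2) to 0.85 (without low mouse 3 of experiment 2), with adjusted p from 0.271 to 0.731. Within the experiments the difference was 0.19 in experiment 1 and 1.10 in experiment 2, and the difference between them did not pass (adjusted p = 0.845 by limma). A second probe set of Cyp7a1 gave 0.67 ± 0.23 (unadjusted p = 0.00695, adjusted p = 0.272 over 22519 probe sets). High minus control was 0.48 ± 0.45, and low minus control was -0.17 ± 0.45.

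Cyp27a1, the mitochondrial hydroxylase of the alternative pathway, was close to even across the groups. Its signals lay between 13614 and 16411 at the low, 13571 and 17994 at the medium and 11966 and 16148 at the high dose-rate, and the pools had 17644 and 15816. High minus control was -0.26 ± 0.11 (unadjusted p = 0.0266, adjusted p = 0.617 by limma), lower in 5 of 6 mice, with -0.46 in experiment 1 and -0.07 in experiment 2. High minus medium was -0.20 ± 0.08 (unadjusted p = 0.0189, adjusted p = 0.999), and high minus low was -0.15 ± 0.08 (adjusted p = 0.517). Its sign was thus opposite to that of Cyp8b1 in all 3 contrasts, without passing the threshold in any. The other probe set of Cyp27a1 had a mean signal of 22.8, was not above the filter and was not tested.

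The conjugating enzymes Slc27a5 and Baat differed little between dose-rates. The bile acid ligase Slc27a5 ranged from 25893 to 35642 over all mice, against 29035 and 31136 in the pools, and high minus low was 0.00 ± 0.07 with an interval of -0.13 to 0.14. Baat, the amino acid transferase, had signals of 1931 in the experiment 1 pool, 1286, 1715 and 1532 at low, 2209, 1591 and 1835 at medium and 1853, 1512 and 1432 at high. In experiment 2 it had 977 in the pool, 1169.8, 1045 and 1026 at low, 1219, 1164 and 1104 at medium and 1033, 1038 and 1119 at high. The split in Baat was by experiment: every array of experiment 2 lay under every array of experiment 1. Between dose-rates, high minus low was 0.03 ± 0.10, and medium minus low was 0.21 ± 0.10 (unadjusted p = 0.045, adjusted p = 0.614 by limma), with 6 of 6 medium mice above the low mean. A second Baat probe set gave 0.15 ± 0.07 for high minus low (unadjusted p = 0.0526, adjusted p = 0.494 over 22519 probe sets) and 0.07 ± 0.07 for medium minus low.

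Among the uptake carriers, Slc10a1 (NTCP), the sodium-dependent carrier, was somewhat higher at the higher dose-rates. Its signals in experiment 1 were 30381 in the pool, 27288, 33490.2 and 22742 at low, 28898, 31676 and 29799 at medium and 30022, 29962 and 33466 at high. In experiment 2 they were 24987 in the pool, 23155, 22908 and 25053 at low, 25927, 30460.2 and 26372 at medium and 32728, 26682 and 27692 at high. In experiment 2 all 6 medium and high mice lay above all 3 low mice and above the pool, and in experiment 1 low mouse 2 was the highest of all. High minus low was 0.23 ± 0.08 (1.18-fold, unadjusted p = 0.0079, adjusted p = 0.285 by limma), in 6 of 6 mice, and the second probe set gave 0.24 ± 0.12. High minus control was 0.12 ± 0.11 and low minus control -0.11 ± 0.11, so the pools lay between the dose levels. Slco1b2, the sodium-independent carrier of the basolateral membrane, differed by 0.00 ± 0.06 between high and low, with an interval of -0.13 to 0.14. Its other tested probe sets gave 0.25 ± 0.10 (unadjusted p = 0.0156, adjusted p = 0.345 over 22519 probe sets), 0.12 ± 0.08 and -0.23 ± 0.25, so they did not share a sign, and its signals are taken up with the experiments.

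Abcb11, the bile salt export pump, was lower at the high dose-rate than in either pool in 6 of 6 mice. The signals in experiment 1 were 13043 in the pool, 8979, 13182 and 9813 at low, 10672, 11519.6 and 11677 at medium and 10207, 11226 and 9211 at high. In experiment 2 they were 13760.0 in the pool, 16003, 16094 and 12719 at low, 11258, 15709 and 11697 at medium and 10577, 12437 and 10836 at high. The high and low mice did not overlap in experiment 2, and in experiment 1 the high mice lay within the range of the low mice. High minus control was -0.32 ± 0.15 (unadjusted p = 0.042, adjusted p = 0.675 by limma), -0.36 in experiment 1 and -0.29 in experiment 2. High minus low was -0.22 ± 0.11 (unadjusted p = 0.0469, adjusted p = 0.486), with -0.05 in experiment 1 and -0.40 in experiment 2, and the difference between the experiments did not pass (adjusted p = 0.812). 

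Nr1h4, the bile acid receptor, varied little between mice and was lowest at the low dose-rate. Its signals in experiment 1 were 3546 in the pool, 3177, 3468 and 3086 at low, 3608, 3868 and 3772 at medium and 4067, 3429 and 4195 at high. In experiment 2 they were 4159.8 in the pool, 2516, 2848 and 3561 at low, 3133, 3024 and 3441 at medium and 3801, 3401 and 3749 at high. All 6 low mice lay under their pool, and so did the 3 medium and 3 high mice of experiment 2. High minus low was 0.28 ± 0.08 (1.22-fold, interval 0.11 to 0.46, unadjusted p = 0.00293, adjusted p = 0.209 by limma), 0.26 and 0.31 in the experiments, in 6 of 6 mice. Low minus control was -0.31 ± 0.12 (unadjusted p = 0.0158, adjusted p = 0.9997), and high minus control was -0.03 ± 0.12. Without the pool of experiment 2 the difference of low from control was -0.12, and without that of experiment 1 it was -0.51, so its size depended on which pool was used.

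Nr0b2, the repressor induced by Nr1h4, had differences from the low dose-rate of opposite sign in the experiments, though this contrast between experiments did not pass. In experiment 1 its signals were 4277 in the pool, 1925, 2359 and 2289 at low, 4158, 5067 and 3299 at medium and 4264, 4241 and 3748 at high. In experiment 2 they were 2214 in the pool, 3729, 4678 and 2638 at low, 1049.9, 2912 and 2556 at medium and 3982, 3345 and 1862 at high. All 3 low mice were under every other array in experiment 1 and above the pool in experiment 2. Medium minus low was 0.91 in experiment 1 and -0.85 in experiment 2, a difference of -1.76 ± 0.44 between them (unadjusted p = 0.000864, adjusted p = 0.244 by limma). High minus low was 0.90 and -0.30, a difference of -1.20 ± 0.44 (unadjusted p = 0.0145, adjusted p = 0.648 by limma). In experiment 2 the low mice overlapped both the medium and the high mice, and high minus low there had an unadjusted p = 0.356 by limma. Pooled over the experiments, high minus low was 0.30 ± 0.29 and medium minus low 0.03 ± 0.29, which averages values of opposite sign. For the difference between experiments, 0 members passed in either contrast against 0% of genes, and Nr0b2 was the only member with an unadjusted p under 0.05, against 8.51% of genes for medium minus low and 6.93% for high minus low.

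Set beside all genes tested, the dose comparisons called none of the 10 genes after adjustment. For high minus low, 0 of 10 members passed and 0% of all genes did, and 4 members had an unadjusted p under 0.05 against 10% of all genes. Cyp8b1, Nr1h4 and Slc10a1 were higher, against 5.32% of all genes, and Abcb11 was lower, against 4.73%. The median difference of the members was 0.13, against 0.00 over all genes. High and low mice did not overlap in experiment 1 for 2 members (Cyp8b1 and Nr0b2), against 11.5% of all genes, and in experiment 2 for 2 others (Slc10a1 and Abcb11), against 15.3%. In both experiments at once this held for 0 members and 1.91% of all genes. For high minus control, 0 members passed against 0.0535% of genes, and Cyp8b1, Cyp27a1 and Abcb11 had an unadjusted p under 0.05 against 7.18%. Of these Cyp8b1 was higher (3.98% of genes) and the other two lower (3.2%). All 6 high mice lay on the same side of their pools for 2 members, Cyp8b1 and Abcb11, against 16.6% of all genes.

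**Figure D2:**
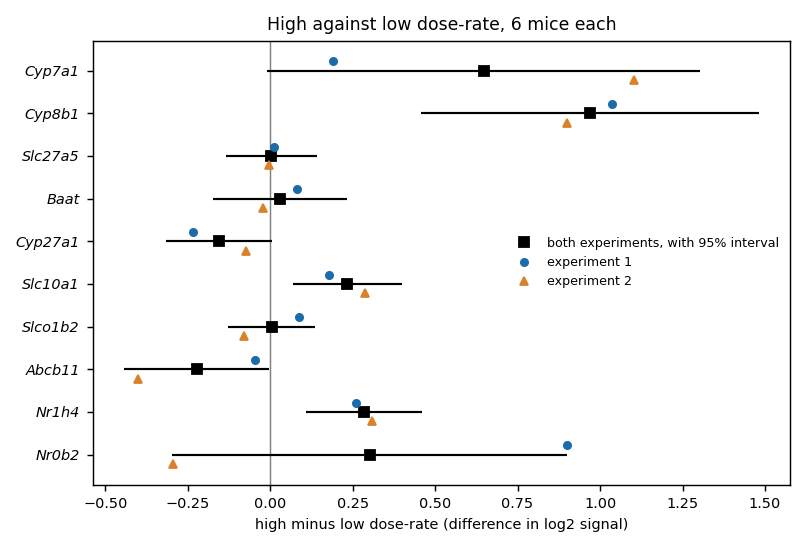
High minus low dose-rate, as a difference in log2 signal (x axis), for each gene, with black squares for both experiments (6 mice against 6, lines give the 95% interval), blue circles for experiment 1 and orange triangles for experiment 2. The intervals of Cyp8b1, Slc10a1, Nr1h4 and Abcb11 leave out 0 before adjustment over all genes, and the experiments lie far apart for Nr0b2 (0.90 and -0.30).

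Members were counted in the same way in the remaining contrasts. Medium minus control called 0 members against 0.0267% of genes, and 0 had an unadjusted p under 0.05 against 5.98% of genes. Low minus control called 0 members against 0.00892% of genes, with Nr1h4 alone under an unadjusted p of 0.05 against 3.82% of genes. All 6 low mice lay on the same side of their pools for Nr1h4 alone, against 10% of genes. In medium minus low 0 members passed, against 0% of all genes, and Cyp8b1, Baat and Slc10a1 had an unadjusted p under 0.05, all higher at medium, against 7.93% of all genes and 4.34% for higher genes. In high minus medium 0 members passed, against 0% of all genes, and Cyp27a1 alone had an unadjusted p under 0.05, against 3.84%. The contrasts that involve one level share its mice or pools, so these counts are not separate evidence.

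Across the 18 irradiated mice, several members varied together. Log2 signals were centred on the mean of each experiment, and all 45 pairs of members and the 10 pairs with Dbp, a clock-controlled activator of Cyp7a1, were correlated. Cyp7a1 and Cyp8b1 had r = 0.70 (permutation p = 0.00048 within experiments, adjusted p = 0.0176 over 55 pairs) and Spearman's rho = 0.65 (permutation p = 0.00306, adjusted p = 0.0561). Within experiment 1 this r was 0.63 and within experiment 2 it was 0.84 (9 mice each), and without the 2 mice farthest from the median of Cyp7a1 it was 0.57. Cyp7a1 and Abcb11 ran in opposite directions, with r = -0.77 (permutation p = 0.00064, adjusted p = 0.0176) and rho = -0.76 (permutation p = 0.00139, adjusted p = 0.0382). Their r was -0.58 in experiment 1, -0.86 in experiment 2 and -0.67 without the 2 farthest mice. This was the only pair past the threshold by both coefficients.

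**Figure D3:**
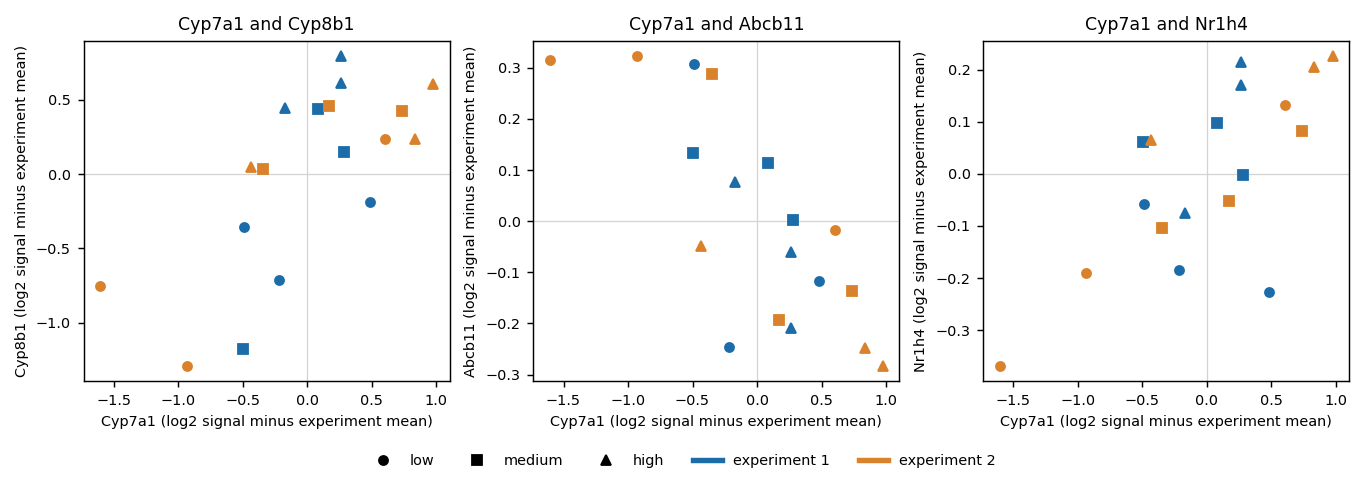
Log2 signal minus the experiment mean of Cyp8b1, Abcb11 and Nr1h4 (y axes) against that of Cyp7a1 (x axes), 1 point per irradiated mouse (18), with circles for low, squares for medium, triangles for high, blue for experiment 1 and orange for experiment 2. Cyp8b1 climbs with Cyp7a1 (r = 0.70) and Abcb11 drops (r = -0.77), and Nr1h4 follows Cyp7a1 closely only in the orange points (r = 0.93 against 0.12 in the blue ones).

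Cyp7a1 and Nr1h4 had r = 0.71 (permutation p = 0.00204, adjusted p = 0.0374) and rho = 0.64 (permutation p = 0.0089, adjusted p = 0.111), but the relation did not hold within experiment 1, where r was 0.12 against 0.93 in experiment 2. Without the 2 farthest mice it was 0.48. Cyp8b1 and Nr1h4 had r = 0.64 (permutation p = 0.00538, adjusted p = 0.0592) and rho = 0.72 (permutation p = 0.00117, adjusted p = 0.0382), with 0.51 and 0.77 within the experiments. Of the 55 pairs 3 passed by r and 2 by rho, and 10 had an unadjusted permutation p under 0.05. Cyp7a1 and its repressor Nr0b2 had r = -0.24 (permutation p = 0.418, adjusted p = 0.854), 0.27 in experiment 1 and -0.40 in experiment 2. Cyp7a1 and Dbp had r = 0.49 (permutation p = 0.119, adjusted p = 0.503).

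The relations of Cyp7a1 were also computed among mice of the same dose level, by centring on its mean. The permutations still moved mice between dose levels within an experiment and did not allow for that centring. These permutation p-values are therefore too small, and passing the threshold is here a description only. With values centred on the mean of each dose level and experiment, r was 0.69 for Cyp7a1 and Cyp8b1 (permutation p = 0.00092, adjusted p = 0.0242), -0.70 for Cyp7a1 and Abcb11 (permutation p = 0.00132, adjusted p = 0.0242) and 0.72 for Cyp7a1 and Nr1h4 (permutation p = 0.00247, adjusted p = 0.034). By Spearman's rho only the first of these passed there, at 0.71 (permutation p = 0.00139, adjusted p = 0.0382), whereas Cyp7a1 and Abcb11 had -0.70 (permutation p = 0.00274, adjusted p = 0.0502) and Cyp7a1 and Nr1h4 had 0.58 (permutation p = 0.0188, adjusted p = 0.173). Cyp8b1 and Nr1h4 did not pass there, with r = 0.49 (permutation p = 0.0428, adjusted p = 0.235) and rho = 0.48 (permutation p = 0.0522, adjusted p = 0.293). Slc27a5 and Slc10a1 were the other pair that passed there, with r = 0.79 (permutation p = 3e-05, adjusted p = 0.00165), whose r without centring on dose level was 0.61 (adjusted p = 0.0798). The second probe set of Cyp7a1, a separate set of oligonucleotides, had r = 0.93 with the first and 0.76 with Cyp8b1, -0.79 with Abcb11 and 0.74 with Nr1h4. These correlations, and those with the measures of the array that follow, were added after seeing the data. Measures of the array itself, the Gapdh ratio, the hepatocyte markers and the array median, were set against Cyp7a1, Cyp8b1, Abcb11 and Nr1h4. Over all 18 mice 0 of those 12 pairs passed, with r between -0.13 and 0.32. The range within experiments was wider. Nr1h4 had r = 0.72 with the hepatocyte markers in experiment 1 and -0.29 in experiment 2. Cyp8b1 had 0.19 with these markers over all mice and 0.55 without the 2 mice farthest from its median.

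The genes whose pattern over the 18 mice was most like that of Cyp7a1 were Ccdc90b (r = 0.92), the aryl hydrocarbon receptor Ahr (r = 0.86) and Pctp, a phosphatidylcholine transfer protein (r = 0.85). For Cyp8b1 they were Fdft1, squalene synthase of cholesterol synthesis (r = 0.89), Bmp4 (r = 0.88) and Pdk4, a kinase that inhibits pyruvate dehydrogenase (r = 0.85). For Nr0b2 they were 9230114K14Rik (r = 0.76), Rif1 (r = 0.75) and Etnppl (r = 0.74). Within experiment 1 and experiment 2, Ccdc90b had r = 0.83 and 0.95 with Cyp7a1, and Fdft1 had 0.93 and 0.86 with Cyp8b1, whereas Ahr had 0.54 and 0.94 with Cyp7a1. Among all 11216 genes ordered by r with Cyp7a1, Nr1h4 stood 89th and Cyp8b1 94th from the top, and Abcb11 was 11203rd, near the bottom. These genes were the highest of all by selection, so their r is a description.

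The experiments differed in more members than the dose-rates did. Limma called 5 of the 10 between experiment 2 and experiment 1, against 42.4% of all genes, which is close to the share of the members. Of these 2 were higher in experiment 2 (27.8% of genes) and 3 lower (14.6%). Cyp8b1 was higher in experiment 2 by 0.81 ± 0.19 (adjusted p = 0.00163), with 6298 ± 2544 in experiment 1 and 10727 ± 3646 in experiment 2 (SD, 9 irradiated mice each). Abcb11 was higher by 0.25 ± 0.08 (adjusted p = 0.0164). Baat was lower, at -0.62 ± 0.08 (adjusted p = 1.34e-06), from 1663 ± 275 to 1102 ± 71.1, and Slco1b2 was lower, at -0.24 ± 0.05 (adjusted p = 0.00053). Slc10a1 was lower, at -0.16 ± 0.06 (adjusted p = 0.0372), but not by its second probe set (0.01 ± 0.09), and it did not pass after centring arrays on their median (adjusted p = 0.243), with quantile normalization (0.123), no filter (0.0792) and no variance trend (0.064). Nor did it pass without any of 12 single arrays, with adjusted p from 0.0502 to 0.0778: either pool, low mice 1 and 2, medium mouse 2 and high mouse 3 of experiment 1, and low mice 1 and 2, medium mice 1 and 3 and high mice 2 and 3 of experiment 2. Slc27a5 (0.12 ± 0.05, adjusted p = 0.0692) and Cyp27a1 (0.13 ± 0.06, adjusted p = 0.0984) did not pass, and both did with median-centred arrays (adjusted p = 0.0101 and 0.0146). Duration, dose-rate and, if the age at the start was the same, age at dissection differed together between the experiments and cannot be told apart.

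**Figure D4:**
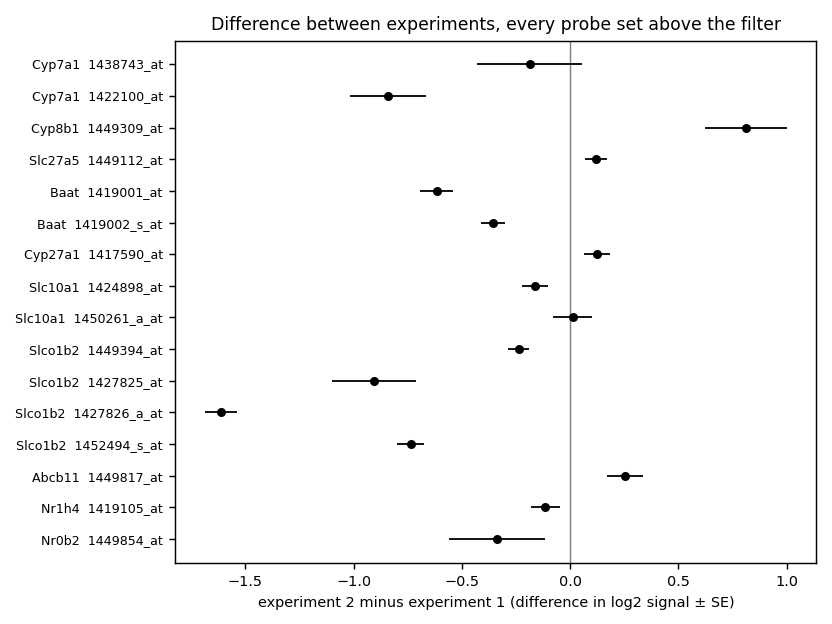
Experiment 2 minus experiment 1 as a difference in log2 signal (x axis, points with SE) for each of the 16 probe sets above the filter. The 4 probe sets of Slco1b2 spread from -0.24 to -1.62, and those of Cyp7a1 lie at -0.19 and -0.84.

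Probe sets of the same gene differed in the size of this difference. The 4 tested probe sets of Slco1b2 gave -0.24 ± 0.05, -0.91 ± 0.19, -1.62 ± 0.07 and -0.74 ± 0.06, all past the threshold over 22519 probe sets, of which 42.1% passed. In all, 10 of the 16 probe sets of members passed. The probe set at -1.62 had signals of 8526 to 12668 in experiment 1 and 2478 to 4186 in experiment 2, without overlap, whereas the probe set used for the gene had 20384 to 26867 and 17560.0 to 20708. Cyp7a1 was -0.19 ± 0.24 by its first probe set and -0.84 ± 0.17 by its second, and only the second passed (adjusted p = 0.000555). Baat was -0.62 ± 0.08 and -0.36 ± 0.06, both past the threshold. The Gapdh ratio moved with the experiments over all 20 arrays, and its part in these differences was not tested. Summed hepatocyte markers were 388073 to 493098 in experiment 1 and 412046 to 514808 in experiment 2, with 4 of 8 called. For the other lists the called counts were 1 of 4 cholangiocyte, 0 of 7 Kupffer, 2 of 6 endothelial, 5 of 6 stellate, 0 of 2 B cell, 1 of 1 T cell and 0 of 3 pancreatic acinar markers.

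Other genes of the pathway did not pass by dose-rate either. Of 22 further synthesis enzymes 19 were tested, of 21 further transporters 18, and of 25 further regulators 19, and 0 of each passed in any of the 6 dose contrasts. Of all genes only 0% to 0.0535% passed in these contrasts, so the counts say little about the lists. For high minus low the smallest p among transporters belonged to Abcg8, a partner in the sterol exporter of bile, at -0.45 ± 0.11 (unadjusted p = 0.000646, adjusted p = 0.161 by limma), and to the organic anion carrier Slco1a4, at 1.07 ± 0.31 (adjusted p = 0.2). Among regulators these were Nr1i3 (CAR) at 0.34 ± 0.11 (adjusted p = 0.274) and Cebpb at -0.37 ± 0.13 (adjusted p = 0.288). Among enzymes they were Acaa1b at 0.14 ± 0.07 (adjusted p = 0.516) and Cyp7b1, the oxysterol hydroxylase, at -0.46 ± 0.28 (adjusted p = 0.617). The median difference for high minus low was 0.08 over the enzymes, -0.06 over the transporters and -0.01 over the regulators. Hnf4a, an activator named above, was -0.43 ± 0.16 in high minus low (unadjusted p = 0.0166, adjusted p = 0.352 by limma), opposite in sign to Cyp8b1. Of its 3 other probe sets 0 had the opposite direction. Against control, Hnf4a at the high dose-rate was -0.63 ± 0.23 (unadjusted p = 0.0128, adjusted p = 0.531 by limma). Nr5a2 was 0.12 ± 0.08 in high minus low (adjusted p = 0.642).

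Against the control pools the regulators were mostly lower. At the high dose-rate 15 of 19 regulators lay under control, 7 with an unadjusted p under 0.05 and 0 after adjustment, against 3.2% of all genes lower at an unadjusted p under 0.05. The regulators had a median of -0.23 against 0.00 over all genes. At the medium dose-rate 14 of 19 lay under control (median -0.16), 4 with an unadjusted p under 0.05, against 5.98% of all genes in either direction. At the low dose-rate 18 of 19 did (median -0.15), 2 with an unadjusted p under 0.05, against 3.82%. These contrasts share the same 2 pools, and the share of all genes lying under control was not counted. Dbp, the clock-controlled factor, was -1.55 ± 0.36 (unadjusted p = 0.000314, adjusted p = 0.185 by limma), and Cebpb was -0.49 ± 0.18 (adjusted p = 0.530). Dbp had similar values at the medium (-1.34 ± 0.36) and the low dose-rate (-1.38 ± 0.36), in contrasts that share the same 2 pools. Dbp varies with the time of day, and the hour of dissection is not stated in the labels. Of transporters, Abcb4, the phospholipid floppase that works beside Abcb11, was -0.34 ± 0.11 at the high dose-rate (adjusted p = 0.432) and Slco1a4 was 0.69 ± 0.44 (adjusted p = 0.775). Of enzymes, Cyp39a1 was -0.73 ± 0.29 (adjusted p = 0.584) and Hsd3b7, which acts early in synthesis, was 0.24 ± 0.10 (adjusted p = 0.617). At the medium dose-rate Hsd3b7 was 0.35 ± 0.10 (adjusted p = 0.359), Acaa1b 0.19 ± 0.10, Abcc3 -0.36 ± 0.22, Abcb4 -0.24 ± 0.11 and Nr1i2 (PXR) -0.44 ± 0.16, none past the threshold. At the low dose-rate Ppara was -0.56 ± 0.18, Acot12 -0.20 ± 0.11, Hsd3b7 0.16 ± 0.10, Abcb4 -0.20 ± 0.11 and Abcg8 0.26 ± 0.16, none past the threshold.

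Between dose-rates other than high and low, Nr5a2 (LRH-1), an activator of Cyp8b1, was 0.30 ± 0.08 higher at medium than at low (unadjusted p = 0.000675, adjusted p = 0.365 by limma) and -0.19 ± 0.08 from medium to high. In medium minus low the others with the smallest p were Ppargc1a at 0.41 ± 0.15, Slco1a4 at 0.87 ± 0.31, Slco2b1 at 0.26 ± 0.09, Acox2 at 0.17 ± 0.06 and Hsd3b7 at 0.20 ± 0.07. In high minus medium they were Abcg8 at -0.34 ± 0.11, Slco2b1 at -0.20 ± 0.09, Nr1i3 at 0.19 ± 0.11, Acot8 at 0.15 ± 0.09 and Hsd3b7 at -0.12 ± 0.07. No adjusted p in these was under 0.365.

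Between experiments, 10 of 19 enzymes passed (6 higher in experiment 2, 4 lower), 5 of 18 transporters (4 higher, 1 lower) and 12 of 19 regulators (11 higher, 1 lower), against 42.4% of all genes. Among enzymes Akr1d1, the steroid reductase of bile acid synthesis, fell by 1.12 ± 0.09 (adjusted p = 1.32e-08 by limma), Akr1c14 by 0.58 ± 0.07 and Cyp2c70, which makes the muricholic acids of mice, by 0.46 ± 0.08. The peroxisomal enzyme Hsd17b4 rose by 0.35 ± 0.06, with its other probe set in the opposite direction, Acot8 by 0.37 ± 0.07 and Acot12 by 0.31 ± 0.06. Among transporters Slco2b1 rose by 0.68 ± 0.07, Abcc6 by 0.60 ± 0.08, Abcg8 by 0.38 ± 0.09 and Abcb4 by 0.16 ± 0.06, and Slc10a2 fell by 1.52 ± 0.35, at signals of only 7.4 to 405. Among regulators Cebpa rose by 0.83 ± 0.05 (adjusted p = 1.89e-10), Fgfr4, the receptor of the intestinal feedback signal, by 0.75 ± 0.08, Mafg by 0.60 ± 0.08, Nr1d1 by 0.95 ± 0.14, Rxra by 0.62 ± 0.09 and Nr1i2 by 0.49 ± 0.08. The median over the regulators was 0.46, against 0.07 over all genes.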

How the data were processed

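RNA of 20 livers or liver pools was measured, and all 20 arrays were used. The deposited values are linear MAS5 signal intensity, which the authors computed per the submitters' processing notes (no MAS5 version is given in the sources). Array means, with 2% trimmed at each end, were all 500.0, so the authors' scaling was kept. Gene names came from the platform annotation.

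Intensity was transformed as log2(signal + 7.12), the 10th percentile of all signals, which understates changes of low genes. Probe sets with a mean log2 at or above the median were kept (22519), and 1 per gene was tested (not ending in _s_at or _x_at first, then the highest mean). Limma 3.58.1 (R 4.3.3) modelled dose level plus experiment on all 20 arrays together (15 residual degrees of freedom), and was also fitted with a mean for each of 8 groups (12 degrees of freedom) for values within an experiment and differences between them. Tests were two-sided with Benjamini-Hochberg adjustment over 11216 genes at 0.05. A count of mice sets each mouse against the pool, or the mean of the lower level, of its experiment. Correlations used 100000 permutations within experiments. The replicates are single mice except for the 2 pools, and the number of arrays limits the precision. No 2 arrays were identical, and the replicate numbers were not treated as pairing the mice. The code was tested on simulated data. All members with every probe set are named; of the 3 wider lists, up to 6 genes past the threshold, or the 2 with the smallest p; and for Cyp7a1, Cyp8b1 and Nr0b2 the 3 genes most alike by Pearson's r. Hnf4a and Nr5a2 are also named as activators of Cyp8b1. The members and lists were chosen with earlier results of these data known. Alternatives tried were pseudocounts, filters, scalings, weights, other model terms and leaving out each array.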

Additional observations from a re-analysis of the deposited data

Results flagged for a closer look

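For 5 results every mouse of one experiment lay on one side and every mouse of the other on the opposite side, in a contrast between dose-rates or with control. How many of all genes had this pattern was not counted, so whether 5 is many cannot be said. None of these differences between experiments passed the threshold in limma's interaction test. For Nr0b2, medium minus low, the effect differed by -1.76 ± 0.44 (0.91 in experiment 1, -0.85 in experiment 2, unadjusted p = 0.000864, adjusted p = 0.244). For Nr0b2, low minus control, it differed by 1.66 ± 0.63 (-0.97 and 0.69, unadjusted p = 0.0161, adjusted p = 0.9999), where the low mice lay under a pool of 4277 in experiment 1 and above a pool of 2214 in experiment 2. For Baat the effect differed by 0.50 ± 0.27 in low minus control (-0.36 and 0.14, adjusted p = 0.9999) and by 0.40 ± 0.27 in high minus control (-0.28 and 0.12, adjusted p = 0.9988). For Nr1h4, medium minus control, it differed by -0.46 ± 0.23 (0.08 and -0.38, adjusted p = 0.99996). All values but the first rest on 1 pool per experiment, and each pool enters 3 contrasts.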

How the results depend on the processing

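Each of the 6 dose contrasts called 0 members under every alternative that could be fitted, except high minus control with arrays weighted by their number of mice, which called 1 (Cyp8b1, 1.02, adjusted p = 0.0166, with 360 of all genes). The replicate numbers were not treated as pairs in the main fit. Of 18 same-numbered pairs 8 correlated above 0.1, with r from -0.15 to 0.30 over all 18. Pairs with different numbers were not compared, so this cannot show whether the numbers pair the mice. The fit with a replicate block called 0 members in each contrast between dose-rates. Between experiments 4 to 6 members passed under the alternatives, and 4 to 5 without 1 array. Besides Slc10a1, Cyp27a1 passed there without either pool (adjusted p = 0.047), and Slc27a5 without high mouse 2 or 3 of experiment 2 (0.0341 and 0.0478) or with weighted arrays (0.0444). Of correlated pairs 2 passed with median-centred arrays (Cyp7a1 with Nr1h4 was lost) and 4 with values centred on dose level too. The permutation p-values of the latter did not allow for that centring and are too small. Cyp8b1, high minus low, kept its direction under 34 alternatives (0.80 to 1.12), as did Nr1h4 (0.23 to 0.34) and Slc10a1 (0.18 to 0.30).

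Among the results named, signs turned only in high minus low, for members near 0 and for Nr0b2. With median-centred arrays Slc27a5 was -0.000772 and Slco1b2 -0.000566, and with quantile normalization they were -0.0482 and -0.0392. In experiment 2 alone Slc27a5 was -0.00459, Baat -0.0214, Slco1b2 -0.0798 and Nr0b2 -0.296. Without each array in turn Slc27a5 ran from -0.0368 to 0.0380, Baat from -0.0318 to 0.0705 and Slco1b2 from -0.0541 to 0.0257. The cause was not tested. Signal over background limits the 2 member probe sets under the filter. One alternative, a filter on mean linear instead of mean log2 signal, was added after seeing the data. So were the correlations of the second Cyp7a1 probe set and those with the measures of the array.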
